A study of Mus musculus with 8 samples.

Results

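Alpha-fetoprotein, encoded by Afp, and 7 genes whose proteins the adult liver secretes into blood plasma were followed in hearts of newborn mice. The 7 are Alb, Apoa1, Serpina1e, Pzp, Mup9, Ttr and Trf. A gene was taken by its symbol in the platform's probe annotation, from probes that carry that single symbol, which gave 8 genes on 10 probes out of 10225 genes with such a probe. All 8 genes passed the filter on missing values, and 9 of the 10 probes did. The second Ttr probe had no value on any array.

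The tested hearts came from neonatal C57BL mice null for connexin43, the gap junction protein encoded by Gja1, and they were set against hearts of neonatal wildtype C57BL mice. Each genotype had 4 arrays, each with Cy3-labelled cDNA of 3 pooled hearts. Every array also carried 1 Cy5-labelled common pool made from adult male and female C57BL mice, with liver, brain, kidney, lung, spleen, stomach, aorta, heart and gonads in it. The kind of null allele, the exact age and the sex of the pups are not given in the labels. Values are log2 ratios of heart over that pool, shifted so that the median spot of each array reads 0. A value of -1 therefore means a ratio at 50% of that of the median spot, and -2 one at 25%. Such a ratio compares a gene with itself in the pool, and it says nothing of how abundant its transcript is next to that of another gene.

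Plasma proteins are made by hepatocytes, which secrete albumin, carriers of lipid, iron and hormones, and inhibitors of proteases. Afp and Alb are related genes of the albumin family. In mammals the yolk sac and the fetal liver make alpha-fetoprotein in large amounts, and the liver switches its gene off after birth, while albumin remains the main plasma protein throughout adult life. Adult liver, a tissue of the pool, transcribes Alb strongly and Afp hardly at all.

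In the RefSeq gene order of GRCm38.p6, Alb, Afp, Afm and Albfm1 follow each other as protein-coding genes on chromosome 5. The bases before the start of Afp and of its neighbour Alb are shown because the genes share a family and a locus and had opposite ratios here. Those of Serpina1e and Pzp are shown as the other members that hold the same letters. Each run is the 150 bases 5′ of the RefSeq start in GRCm38.p6, and capitals mark GTTAAT, a part of the recognition sequence of the liver factor HNF1.
Afp, chr5:90490564-90490713, plus strand: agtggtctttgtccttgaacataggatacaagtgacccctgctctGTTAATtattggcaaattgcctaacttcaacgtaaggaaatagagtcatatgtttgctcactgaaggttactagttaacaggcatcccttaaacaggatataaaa
Alb, chr5:90460720-90460869, plus strand: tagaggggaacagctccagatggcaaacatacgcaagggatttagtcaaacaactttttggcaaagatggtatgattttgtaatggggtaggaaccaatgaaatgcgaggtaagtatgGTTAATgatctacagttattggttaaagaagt
Serpina1e, chr12:103956898-103957047, minus strand: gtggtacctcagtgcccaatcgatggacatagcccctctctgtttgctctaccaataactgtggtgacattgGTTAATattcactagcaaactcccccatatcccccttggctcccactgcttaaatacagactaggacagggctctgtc
Pzp, chr6:128526721-128526870, minus strand: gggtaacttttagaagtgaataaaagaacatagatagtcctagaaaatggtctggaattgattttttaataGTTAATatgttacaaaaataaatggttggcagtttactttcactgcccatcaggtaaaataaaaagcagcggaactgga
The first capital letter stands 105 bases before the start in Afp, 32 in Alb, 78 in Serpina1e and 79 in Pzp. GTTAAT was found, on either strand, in 4 of the 6 members with a promoter in the table, against 3.71% of all 32851 promoter windows of the same length. A longer HNF1 string that contains GTTAAT occurred in Afp alone among the 6, and in 0.262% of windows. TGTTTGC, a letter string bound by FOXA factors, occurred in Afp, Alb, Apoa1 and Serpina1e and in 2.44% of windows. TTGCNNAA, of the C/EBP kind, occurred in Afp and Alb and in 5.46%. CCAAT occurred in Afp, Alb and Serpina1e and in 24.5%, and TATAAA in Afp and in 7.57%. All strings were searched on both strands, and a match describes letters and not binding. So within these windows Afp and Alb share 4 of the 6 strings, and differ at the longer HNF1 string and at TATAAA. In Afp TATAAA lies at the very end of the window, so that this difference depends on where the start is placed.

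Between 12971 and 23929 of 28704 spots had a value on an array, the fewest on wildtype replicate 1. The rank correlation of that array with each of the others had a median of 0.568 over 8238 features, against 0.676 to 0.801 for the other arrays. The deposited ratios do not show how bright a spot was. How far the heart signal of a low ratio, or the pool signal of a high one, lies above background is thus unknown. The number of arrays also limits the precision. Gja1 read -0.29, 0.25, 0.12 and 0.22 in null hearts against 1.04, 1.31, 0.99 and 0.79 in wildtype hearts, a difference of -0.95 (SE 0.15, adjusted p = 0.340 in limma). The position of its single probe relative to the deleted part is not known here. Genes of heart muscle such as Ldb3 and Pln define the labelled tissue, and the median ratio of the 14 measured ones lay between 0.72 and 1.02 on all 8 arrays.

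Afp stood far above the adult pool in every heart sample. It read 2.59, 2.53, 2.33 and 2.58 in null replicates 1 to 4, against 2.28, 2.07, 2.29 and 2.12 in wildtype replicates 1 to 4. The lowest null value lay just above the highest wildtype value, so that the groups did not overlap. In linear terms the ratio of Afp averaged 5.69 times that of the median spot in null hearts and 4.56 times in wildtype hearts. Only 3 of 11804 tested features had a higher mean ratio over the 8 arrays. Afp had 1 probe, and the size of its ratio rests on a pool signal whose height above background is unknown.

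The adult liver genes lay on the opposite side. Serpina1e, of the mouse alpha-1 antitrypsin family of protease inhibitors, read -3.51, -2.91, -3.19 and -2.999 in null hearts against -3.33, -2.08, -2.27 and -2.39 in wildtype hearts. Wildtype replicate 1 fell inside the null range, and the other 3 wildtype arrays lay above all null values. Its mean was the lowest of the 8 genes, and rank 7 from the bottom of all features.

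Pzp encodes a broad protease inhibitor of the alpha-2-macroglobulin type. It read -3.19, -3.15, -3.29 and -2.59 in null hearts against -2.71, -2.40, -1.75 and -2.40 in wildtype hearts. Wildtype replicate 1 was again the lowest of its group, and it lay below null replicate 4. This gene had 2 probes, 1 of them without a value on null replicate 1, and they gave differences of -0.74 and -0.70. Albumin, the most abundant plasma protein and a carrier of fatty acids, had Alb ratios of -2.69, -2.44, -3.23 and -2.39 in null hearts. In wildtype hearts they were -2.99, -1.99, -2.36 and -2.41, so that the groups overlapped widely.

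Mup9 belongs to the major urinary proteins, small carriers of scent molecules that the adult mouse liver makes for excretion. Its values were -2.19, -2.44, -2.85 and -2.70 in null hearts against -2.65, -2.11, -1.82 and -2.31 in wildtype hearts. Apoa1, which encodes the main protein of high-density lipoprotein, read -2.54, -2.45, -2.86 and -2.07 in null hearts against -2.55, -1.61, -1.96 and -2.46 in wildtype hearts. Both genes overlapped between genotypes, with wildtype replicate 1 lowest in its group for each.

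The iron carrier transferrin, encoded by Trf, is made in adult liver and also in the myelin-forming cells of the brain. It read -2.90, -1.89, -2.56 and -1.96 in null hearts against -1.51, -1.37, -1.31 and -1.74 in wildtype hearts. The groups did not overlap, with every null value under the lowest wildtype value, and here wildtype replicate 1 stood with its group. Ttr encodes transthyretin, which carries thyroid hormone and the retinol-binding protein, and is made in liver and in the choroid plexus of the brain. It read -0.49, -0.85, -1.22 and -0.53 in null hearts against -0.50, -0.53, -0.91 and -0.83 in wildtype hearts. Its ratio was thus the closest to 0 of the adult genes, with groups that lay over each other.

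**Figure D1:**
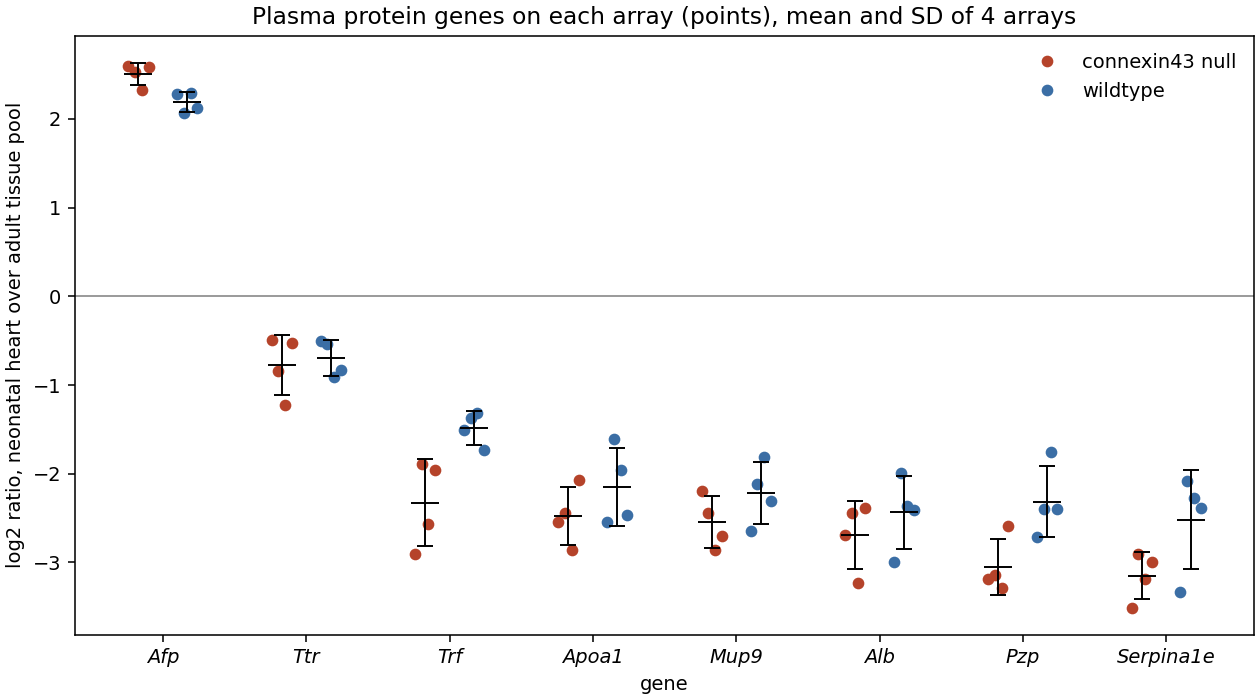
Log2 ratio of neonatal heart over the adult tissue pool for the 8 genes, with a point per array for null (left) and wildtype (right) hearts, and bars for the mean and SD of 4 arrays. Afp lies above 2 on all 8 arrays, Ttr between -1.22 and -0.49, and the other 6 genes at or below -1.31.

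These levels are a description, since the genes were chosen by their ratios to the pool and their genotype differences on these same arrays. Of the 8 genes 6 had a mean ratio at or below -1.5, as had 0.652% of all features, and 1 was at or above 1.5, as were 0.144%. Some of these genes belong to families. Serpina1e and Mup9 have near-identical neighbours in the mouse genome, and Pzp has relatives, so that a long cDNA probe may bind transcripts of several of them. Their values are therefore uncertain as to the gene.

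Setting Afp against each adult gene on the same array removes the centring from the comparison. The difference of the 2 log2 ratios was positive on all 8 arrays for all 7 genes. It averaged 5.20 ± 0.28 in null hearts and 4.63 ± 0.50 in wildtype hearts (SD, n = 4 each) for Afp minus Alb. Over all 8 arrays that is a 30.1-fold gap between the ratio of Afp and the ratio of Alb. For Serpina1e the difference averaged 5.66 ± 0.30 in null and 4.71 ± 0.63 in wildtype hearts, and for Pzp 5.56 ± 0.27 and 4.50 ± 0.39 in the same order. For Mup9 it was 5.06 ± 0.22 in null and 4.41 ± 0.37 in wildtype hearts, and for Apoa1 4.99 ± 0.24 and 4.34 ± 0.49. It was 4.84 ± 0.48 in null and 3.67 ± 0.19 in wildtype hearts for Trf, and 3.28 ± 0.22 and 2.88 ± 0.25 for Ttr. The null mean was above the wildtype mean for each gene, and the groups stood apart for Pzp and Trf and overlapped for the other 5. The 7 gaps share the same Afp values, so they are not 7 separate observations. Only the centring cancels in a gap, and not the spread of an array's ratios, which is given below. How often pairs of other genes stand apart was not counted. No test was made of these differences, because both genes of each pair were chosen.

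**Figure D2:**
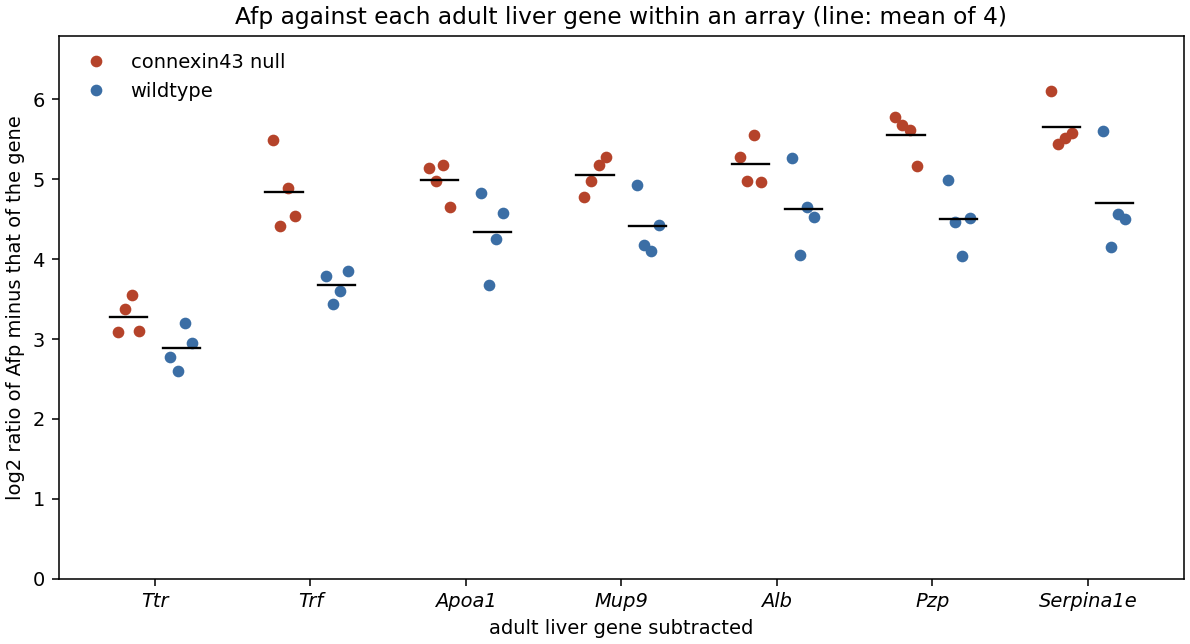
Log2 ratio of Afp minus the log2 ratio of each adult liver gene on the same array, for null (left) and wildtype (right) hearts, with a line at the mean of 4 arrays. The values run from 2.60 to 6.10, and the wildtype array nearest to the null arrays for Alb, Apoa1, Mup9, Pzp and Serpina1e is replicate 1.

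Between genotypes, no gene of the 8 passed the test. With limma over 11804 features, 0 were called at an adjusted p of 0.05 (0.00%), while 972 (8.23%) had an unadjusted p under 0.05. The differences below therefore did not pass. Each is given with its interval, which is for that gene alone and is not adjusted for the number of features.

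Trf averaged -2.33 ± 0.49 in null hearts against -1.48 ± 0.19 in wildtype hearts (log2 ratio, SD, 4 arrays each). Its difference of -0.85 (SE 0.21, 95% interval -1.32 to -0.38) was the largest of the 8 genes, a ratio 1.80-fold lower in null hearts, with adjusted p = 0.510 in limma. Pzp followed with -0.74 (SE 0.21, interval -1.20 to -0.28, adjusted p = 0.519 in limma), and Serpina1e with -0.63 (SE 0.24, interval -1.17 to -0.10, adjusted p = 0.568 in limma). Afp was the one gene with a higher mean, 2.51 ± 0.12 in null hearts against 2.19 ± 0.11 in wildtype hearts (SD, 4 arrays each), a difference of 0.32 (SE 0.11, interval 0.08 to 0.56, adjusted p = 0.553 in limma). This value depended on the scaling of the arrays, with 0.16 without centring, 0.17 with equal spread and -0.02 after quantile normalization. Quantile normalization also gave -0.30 for Serpina1e and -0.49 for Pzp. As each array was left out, Trf ran from -0.99 to -0.65 and Pzp from -0.89 to -0.55. Serpina1e then ran from -0.91 to -0.49 and Afp from 0.28 to 0.38.

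Apoa1, Mup9 and Alb had differences of -0.33 (interval -0.82 to 0.15), -0.33 (interval -0.75 to 0.09) and -0.25 (interval -0.75 to 0.25). Ttr had -0.08 (interval -0.46 to 0.30). Their adjusted p-values were 0.644 to 0.917 in limma. The intervals of these 4 genes span both signs and leave room for a change in either direction. Those of the other 4 genes do not span both signs, but they are unadjusted and none of those genes passed. The sign of Afp also turned after quantile normalization. Without null replicate 3 the difference was -0.07 for Alb, -0.21 for Apoa1 and 0.07 for Ttr. Without wildtype replicate 2 it was -0.10 for Alb and -0.16 for Apoa1, and without wildtype replicate 3 it was -0.19 for Mup9. Without wildtype replicate 1 Alb had -0.44, and Ttr ran from -0.17 to 0.07 as each array was left out. After quantile normalization Alb had -0.06, Mup9 -0.16, Apoa1 -0.22 and Ttr -0.03. With equal spread Alb had -0.10, Mup9 -0.20, Apoa1 -0.20 and Ttr 0.01, and without centring Alb had -0.41 and Ttr -0.24.

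Counted together, 7 of the 8 genes had a lower mean in null hearts, as had 59.1% of all features. An unadjusted p under 0.05 was reached by 3 as lower, where 6.13% of all features reached it, and by 1 as higher, where 2.10% did. Groups did not overlap for 1 lower gene, Trf, against 5.54% of features, and for 1 higher gene, Afp, against 2.00%. The genes were proposed with this contrast in view, so that nothing is read from these counts. In whole hearts, fewer cells of a type and less transcript per cell cannot be told apart.

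The differences of the 8 genes went along with a trend over all features. Among the other 23 features with a mean ratio at or below -2, 23 had a lower value in null hearts, with a median difference of -0.51. Among the other 48 between -2 and -1.5 the median was -0.37, and among the 579 between -1 and -0.5, where Ttr lies, it was -0.18. At the top, 12 of the other 16 features above 1.5, where Afp lies, had a higher value in null hearts, with a median of 0.25. The median of all features was -0.04. Between 0 and 0.5, 2665 features were lower and 2425 higher, with a median of -0.01. Ratios below -0.5 were thus mostly lower and those above 0.5 mostly higher in null hearts. The 23 lowest features held liver genes such as Fgb and Bhmt, and also stomach and lung genes such as Gkn2 and Sftpc. The signs rest on the centring, since without it the median of all features was -0.18.

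Alb, Mup9 and Apoa1 had smaller drops than the median of the 23 features with like ratios, and Pzp and Serpina1e larger ones. Trf, at a mean ratio of -1.90, had a larger drop than the features between -2 and -1.5 mostly had, with quartiles of -0.50 and -0.11. With the trend removed by a smooth curve over all features, Trf kept -0.48 (SE 0.21), Pzp -0.27 and Serpina1e -0.15, while Afp had -0.01, Alb 0.20, Apoa1 0.09, Mup9 0.10 and Ttr 0.11. Each of these had an adjusted p between 0.783 and 0.984 in limma. The slope of an array's ratios on the mean of the other 7 arrays, over 8230 other features, was 0.96, 1.08, 1.18 and 0.99 in null hearts against 0.88, 0.83, 0.74 and 0.95 in wildtype hearts. All 4 null slopes lay above all 4 wildtype slopes, by a narrow margin between null replicate 1 and wildtype replicate 4. The part of this spread of ratios in the genotype differences of the 8 genes was not tested.

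**Figure D3:**
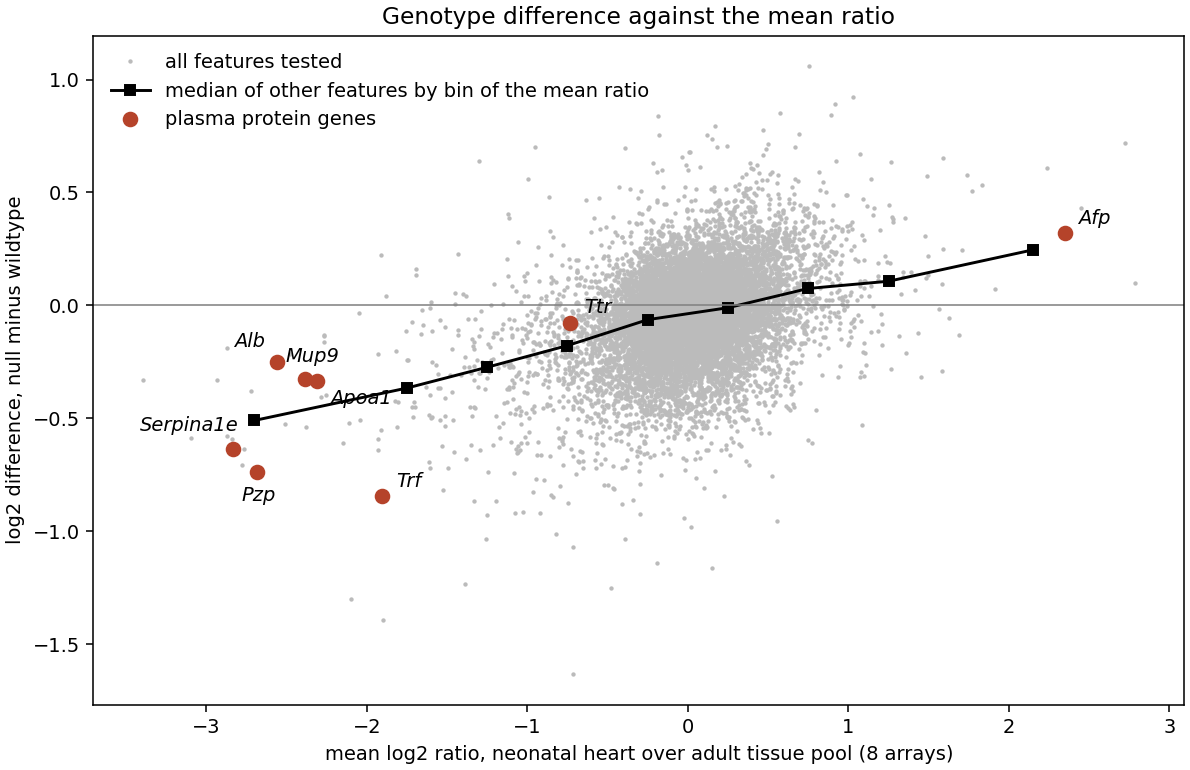
Log2 difference of null minus wildtype hearts against the mean log2 ratio over 8 arrays, for 11804 features (grey), the 8 plasma protein genes (red) and the median of the other features in bins of the mean ratio (black). The medians run from -0.51 at ratios at or below -2 to 0.25 above 1.5, with Afp near that line, Trf and Pzp below it and Alb above it.

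The arrays also differed within each genotype in a way the adult genes shared. Null replicate 3 had the lowest null value for 5 of the 7 adult genes, and wildtype replicate 1 the lowest wildtype value for 5 of 7. The median of the 7 genes was -2.69, -2.44, -2.86 and -2.39 in null replicates 1 to 4 against -2.65, -1.99, -1.82 and -2.39 in wildtype replicates 1 to 4. In 39 other features measured on all arrays with mean ratios at or below -1.5, the median was also lowest on null replicate 3, at -2.19, and highest on wildtype replicate 3. Null replicate 3 also had the largest slope and wildtype replicate 3 the smallest. The part of these slopes in the shared lows and highs was not tested.

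Other products of the hepatocyte had low ratios as well. Of 105 further plasma protein genes 53 had a probe, and 29 passed the filter on missing values and were tested. Of these 29, 28 had a mean ratio below 0, against 49.8% of all features. The fibrinogen chains Fgb and Fga, which form the clot, were the lowest, at -3.18 ± 0.61 in null (n = 3) and -2.47 ± 0.42 in wildtype hearts (n = 4) for Fgb and -2.34 ± 0.39 and -2.21 ± 0.38 for Fga. Rbp4, the retinol carrier that travels with transthyretin, and Itih1, an inter-alpha-trypsin inhibitor chain, had means of -1.81 and -1.61 over all arrays. Itih4 at 0.06, Pon3 at -0.10, Agt at -0.10 and Masp1 at -0.18 were the highest.

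In null hearts 25 of the 29 had a lower value and 4 a higher one, with a median difference of -0.22, and 0 passed the test. The median was -0.11 without null replicate 3, with 21 lower, and -0.04 with the trend on the ratio removed, with 15 lower. It was -0.14 with equal spread and -0.39 without centring. By unadjusted p the first were Lrg1 (-0.44, SE 0.14), Apoc2, which activates lipoprotein lipase (-0.83, SE 0.27), Fetub (-0.49, SE 0.16) and Fgb (-0.71, SE 0.29). Each had an adjusted p of 0.553 or 0.587 in limma, and Lrg1 was the 1 gene of the 29 whose groups did not overlap, where 5.54% of all features stood apart as lower and 2.00% as higher.

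Enzymes and factors of the hepatocyte had low ratios too. Of 101 genes listed, Ttr among them, 44 had a probe and 20 passed the filter on missing values. Of 19 tested, Ttr aside, 18 had a mean ratio below 0, from Bhmt of methyl group metabolism at -2.72, through Mat1a, Hsd11b1 and Cyp2e1 at -1.93, -1.82 and -1.61, to Ephx1 at 0.06. Hao1, Ugt2b36 and Cyp4a14 lay between at -0.44, -0.63 and -0.64. In null hearts 14 had a lower value and 5 a higher one, with a median difference of -0.25, and 0 passed. The median was -0.09 without null replicate 3 and -0.05 with the trend removed, with 12 lower in each case, and -0.41 without centring. Glul, the glutamine synthetase gene that many tissues express, had the smallest p of the list, with -0.60 (SE 0.14, adjusted p = 0.420 in limma) and groups that did not overlap. Mat1a had -0.59 (SE 0.20), Bhmt -0.52 (SE 0.23) and Ttpa, the vitamin E transfer protein gene, -0.30 (SE 0.14), none of them past the threshold. The groups of Ttpa (n = 3 null and 4 wildtype) did not overlap either, so that 2 of the 19 stood apart as lower, where 5.54% of all features did. Ttpa had no value on null replicate 3, and smaller groups stand apart more easily.

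Afm, the third albumin family gene measured, resembled Alb in direction and not in size, with -1.01 ± 0.28 in null hearts against -0.83 ± 0.20 in wildtype hearts (SD, 4 arrays each). They differed by -0.17 (SE 0.15, adjusted p = 0.763 in limma).

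Afp was not alone among the genes listed for fetal liver and yolk sac. Of the 13 listed 7 were tested, Afp among them. Whether these transcripts came from such tissue or from the heart itself was not tested. Of the 6 others, Mest and the noncoding H19, both imprinted, had mean ratios of 2.78 and 2.73, and Igf2, the fetal growth factor gene beside H19, 1.02. Peg3 had 0.72, Igf2bp1 0.36 and Gpc3, a cell surface proteoglycan gene, -0.05. In null hearts 5 had a higher value and 1, Igf2, a lower one, with a median difference of 0.09 and 0 past the threshold. That median was 0.17 without null replicate 2, 0.16 without null replicate 3, 0.06 without wildtype replicate 3 and 0.05 without wildtype replicate 4. It was 0.06 after quantile normalization, 0.03 with equal spread, 0.04 with the trend removed and -0.01 without centring. H19 had 0.72 (SE 0.23) and Igf2bp1 0.19 (SE 0.11), both with groups that did not overlap, as in 2.00% of all features (adjusted p = 0.553 and 0.635 in limma). In wildtype hearts H19 read 2.63, 2.46, 1.57 and 2.81, lowest on replicate 3. Igf2bp1 read 0.03, 0.39, 0.34 and 0.29 there, lowest on replicate 1. The lower mean of Igf2, -0.14 (SE 0.28), came with null values of 1.33, 1.09, 1.48 and -0.11, the last of them on replicate 4. Of the regulators of Afp in liver 3 were tested. Zfhx3, a repressor of Afp, had -0.08 in null and -0.11 in wildtype hearts, Nr5a2 -0.02 and 0.10, and Ctnnb1 0.76 and 0.69, and 0 passed the test.

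**Figure D4:**
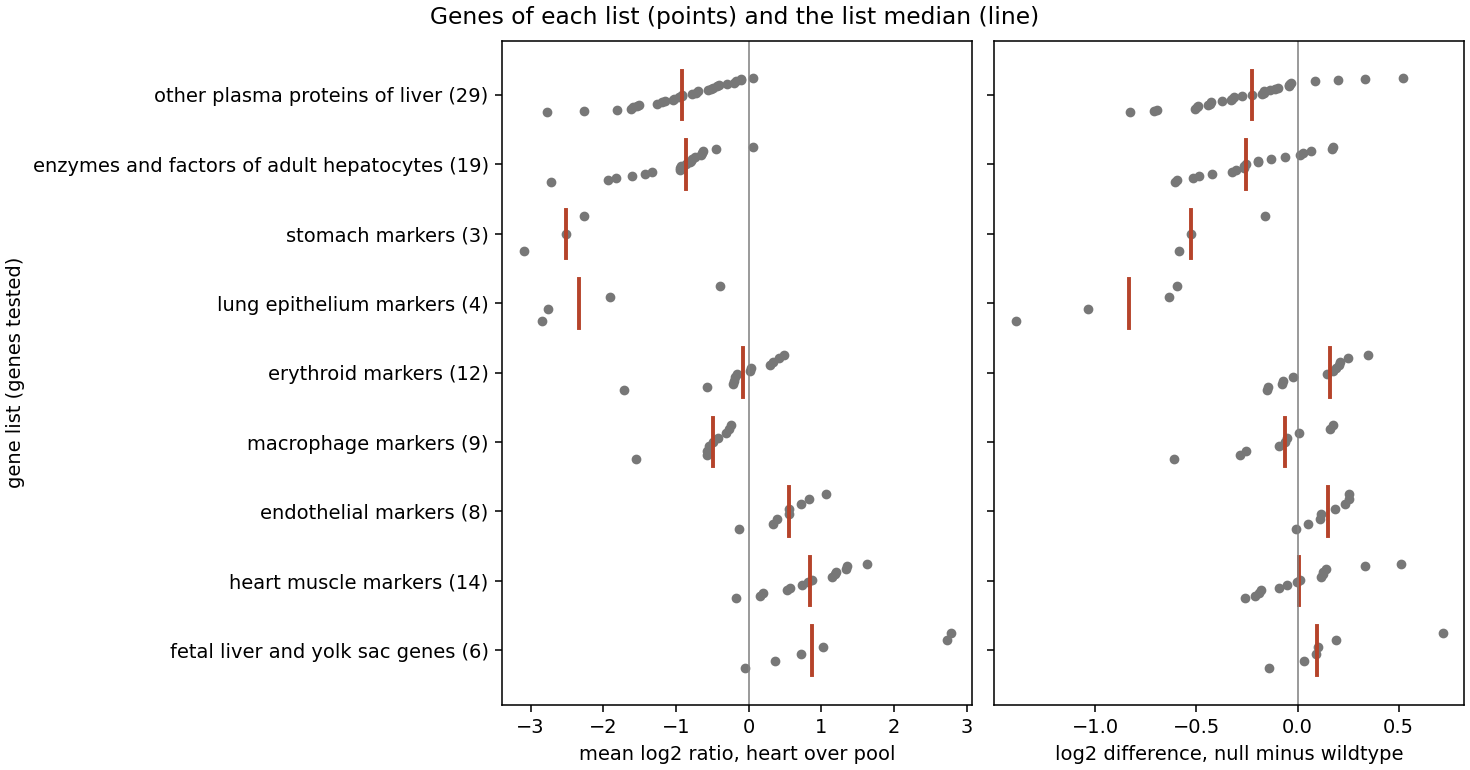
Mean log2 ratio over 8 arrays (left) and log2 difference of null minus wildtype hearts (right) for tested genes of 9 lists without the 8 plasma protein genes, with a point per gene and a line at the list median. Liver, stomach and lung genes have median ratios below -0.8 and median differences of -0.22 or lower, and heart muscle and fetal genes have median ratios of 0.85 and 0.87 and median differences of 0.01 and 0.09, the fetal value being -0.01 without centring.

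Transport partners of the iron and retinol carriers had mean ratios from -1.81 for Rbp4 to -0.10 for Tfrc, with a median of -0.35 over 8 genes. For iron, the receptor gene Tfrc had -0.05 in null and -0.16 in wildtype hearts, the importer Slc11a2 -0.14 and -0.25, and the milk iron carrier Ltf -0.31 and -0.22. The exporter Slc40a1 had -1.12 ± 0.45 in null (n = 3) and -0.58 ± 0.14 in wildtype hearts (n = 4), a difference of -0.54 (SE 0.19, adjusted p = 0.556 in limma) with groups that did not overlap. The iron oxidase gene Cp had a mean ratio of -1.04 and a difference of -0.33 (SE 0.20). Of the retinol genes, Rbp4 had a difference of -0.43 (SE 0.29), Rbp2 -0.48 (SE 0.18) and the uptake receptor Stra6 -0.06 (SE 0.12). Over the 8 partners other than Trf, 6 were lower, 2 higher and 0 passed. Slc40a1 was the 1 of them whose groups did not overlap, where 5.54% of all features stood apart as lower.

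Among 9 receptors and exporters that handle these proteins, mean ratios ran from -0.44 for Lrp1, a receptor for protease inhibitor complexes, to 0.50 for the lipoprotein receptor gene Vldlr. The albumin salvage receptor Fcgrt had -0.18 in null and -0.17 in wildtype hearts, Scarb1, the receptor of high-density lipoprotein, -0.28 and -0.25, the cholesterol exporter gene Abcg1 -0.33 and -0.33, and Cubn 0.04 and 0.06. The median difference of the 9 was -0.01, with 6 lower, 3 higher and 0 past the threshold. Lrp1 had -0.39 (SE 0.17), over 3 arrays per genotype whose values did not overlap, and Abca1, another cholesterol exporter gene, -0.39 (SE 0.29). Lrp1 was the 1 gene of the 9 that stood apart, where 5.54% of all features did as lower. Groups of fewer arrays stand apart more easily.

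Genes of other adult tissues and of blood were set beside the 8 genes. Stomach markers (3 tested) had a median ratio of -2.51 and a median difference of -0.52, with Tff2 at -0.52 and Gkn2 at -0.16, and 2 of the 3 had groups that did not overlap. The 4 lung epithelium markers had a median ratio of -2.33 and a median difference of -0.83, with Sftpc at -0.63 and Cbr2 at -1.39, and groups that did not overlap for all 4, where 5.54% of all features stood apart as lower. None of these markers passed, and Tff2 and Cbr2 had values on only 3 null arrays. The level of the lung list, the mean over its genes with a value on an array, ran from -2.68 to -2.23 in null hearts. In wildtype hearts it ran from -1.90 to -1.29. The other adult tissues had smaller median differences, -0.33 over 3 gonad genes such as Hsd3b1 and Star, and -0.16 over 4 brain genes such as Syn1 and Calb1. It was -0.15 for the 2 kidney genes Miox and Aqp1, -0.13 over 3 spleen lymphocyte genes such as Cd79b and Coro1a, and -0.06 over 9 macrophage genes such as Fcer1g and C1qb. Endothelial genes (8 tested), among them Cdh5 and Esam, had a median difference of 0.15, with 7 higher and 1 lower. Erythroid markers (12 tested), Hbb-y and Ermap among them, had a level of -0.23 to 0.02 in null and -0.48 to -0.01 in wildtype hearts, with a median difference of 0.16. The further plasma protein list had a level of -1.26 to -0.82 in null and -0.95 to -0.66 in wildtype hearts. Missing values differ between arrays, so none of these levels averages the same genes on every array. Fgb and Itih1, for example, had no value on null replicate 1, and Cbr2 none on null replicate 2. The part of residual blood, lung or other tissue in the values of the 8 genes was not tested.

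The named genes most like Afp in value over the 8 arrays, by the root mean square difference of log2 ratios among 5676 candidates, were Grb10 (0.31), Slc8a1 (0.49), Mest (0.51), H19 (0.58) and Fstl1 (0.67). Those most like Alb were Apoa1 (0.31), Pla2g1b (0.33), Mup9 (0.34), Clps (0.37) and Gkn2 (0.39). Grb10, an imprinted adaptor of insulin signalling, had 2.54 ± 0.21 in null hearts against 1.93 ± 0.37 in wildtype hearts (SD, 4 arrays each). Of the 5 genes nearest to Alb, 2 were members, and Pla2g1b, Clps and Gkn2 encode proteins secreted into the digestive tract.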

How the data were processed

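Two-colour arrays were read from the series' deposited table, which holds log ratios of both dyes per spot for 8 arrays. The deposited values were read as log2, a base inferred as follows. Differences between spots of 1 block were compared with logs of ratios of whole numbers (up to 120, tolerance 1.5e-09). Base 2 gave 8347 hits among 31305626 pairs, base 10 gave 863 and base e 269. How the authors scanned, filtered and scaled the spots is not given in the sources at hand. The direction is not stated in the labels either. Heart was taken as the numerator because the median of 14 heart muscle markers, 0.72 to 1.02, lay above that of 12 brain, kidney, stomach and gonad markers, -1.54 to -0.59, on 8 of 8 arrays. All arrays had the same dye orientation per the labels, so that dye bias stays in ratios to the pool. It cancels between genotypes only as far as it was the same on every array, which was not tested.

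Of 28704 probes 18511 had 1 gene symbol, 937 several and 9256 are unnamed here. The annotation can be old. Gene numbers of 18267 single-symbol probes were found in RefSeq's GRCm38.p6 table. Arrays were centred on their medians. Probes needed 3 or more measured arrays per genotype, and those sharing a symbol were combined in an additive model (probe plus array), leaving 11804 features. The genotype contrast, null minus wildtype, used the lmFit and eBayes functions of limma (version 3.58.1, R 4.3.3). P-values were adjusted by Benjamini-Hochberg across the 11804 features, and 0.05 was the limit. The script was tested on simulated data. The labels number the heart pools without saying that litters differed, so p-values cover only the spread of these pools.

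The 8 genes, the lists and the tests were chosen with earlier results of these data known. From each list that bears on the genes, the 4 lowest and 4 highest mean ratios and the 4 smallest p-values are named, or all of a list with up to 6 tested genes, and of other lists at most 2 genes, those nearest the median ratio. The 5 nearest genes are given for Afp and Alb. Promoter sequences are from RefSeq, GRCm38.p6. Alternatives were no centring, quantile normalization, equal spread, centring within 48 blocks, other limits on missing values, single probes, a plain mean of probes, robust eBayes, a threshold of 0.10, the replicate number as a block and each array left out with features kept. A median over spots measured on all arrays and the removal of the trend on the ratio, a lowess curve with span 0.3 in statsmodels 0.14.6, were added after seeing the data. Python 3.11.15 with pandas 2.3.3, numpy 2.4.6 and matplotlib 3.10.9 drew the plots and tables.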

Additional observations from a re-analysis of the deposited data

Results flagged for a closer look

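A value counted as far from its group when its gap to the nearest of the other 3 arrays exceeded, as a share of the range of all 4, Dixon's 95% critical value. Among 131 groups of 4 values of the named genes, 4 met this, where chance gives about 1 in 20. Mest read 3.36 on wildtype replicate 1, against 2.46 to 2.59 on the others. The retinol-binding gene Rbp2 read -1.06 on null replicate 3, against -0.57 to -0.52. The transferrin receptor gene Tfrc read -0.15 on null replicate 1, against -0.02 to -0.01. Fcgrt read -0.031 on null replicate 3, against -0.24 to -0.21. None of the 8 plasma protein genes met it.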

How the results depend on the processing

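The ratios to the pool and the gaps between Afp and the adult genes kept their sign under every alternative run for them, 121 and 106 values, and moved by less than the SD over all 8 arrays, both genotypes together. Against the smaller SDs within a genotype some moved more: Afp had a mean ratio of 2.19 without centring, in place of 2.35, and Afp minus Alb 5.23 with centring within blocks, in place of 4.91. No feature passed under any alternative. The genotype difference of Afp was -0.023 after quantile normalization. With the trend on the ratio removed it was -0.013, and Alb had 0.20, Apoa1 0.086, Mup9 0.10 and Ttr 0.11, all opposite in sign to the values reported. Ttr had 0.012 with equal spread and, over single left-out arrays, ran from -0.17 to 0.073. The other 153 of 161 values kept their sign. Without centring, the median difference of all features was -0.18 in place of -0.04. Features at an unadjusted p under 0.05 were then 1364 lower and 28 higher, in place of 724 and 248 of 11804. With the trend removed 376 were lower. With other numbers of features tested, 440 of 8078 with values on all 8 arrays were lower and 380 of 16308 single probes higher. The count of further plasma protein genes with a lower value was 15 with the trend removed, in place of 25. Among fetal genes the count of lower values was 3 without centring, after quantile normalization, with equal spread and with the trend removed. It was 2 with centring within blocks or a limit of 2 arrays, and 1 to 2 over single left-out arrays. The numbers 1 to 4 are shared by both genotypes without a stated pairing. Deviations of same-numbered arrays correlated at -0.25 to -0.01, no array correlated best with its own number, and with the replicate number as a block the difference of Trf stayed at -0.85 (adjusted p = 0.787 in limma) and no feature passed. Causes of these shifts were not tested. How far a low spot exceeded background is unknown without intensities.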
